A study of Homo sapiens with 9 samples.

Results

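The genes examined were 10 members of the NF-kB system, chosen by name: the Rel subunits NFKB1, NFKB2, RELA and RELB, the IkB family genes NFKBIA, NFKBIE and NFKBIZ, and the target genes TNFAIP3, TNFAIP2 and BIRC3. They were taken from a table of 24344 genes by their Ensembl identifiers, and all 10 were among the 14195 genes with enough counts to be tested. The cells were MDA-MB-231, a human breast adenocarcinoma line long kept in culture, and RNA was sequenced after 48 h with CKI (Compound Kushen Injection, which combines extracts of Kushen and Baituling), Kushen injection or Baituling injection. CKI was given at 2.0 mg/mL of total alkaloids and each single injection at the equivalent dilution, with 3 libraries per treatment. The groups shared the cell line, the time and the library method and differed by the injection. All results come from a single line, and libraries of untreated cells were not analysed here, so each value compares one injection with another. The question was how transcripts of the pathway and of its feedback genes stood under the combined injection beside each single one.

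NF-kB transcription factors are dimers of Rel proteins that IkB proteins hold in the cytoplasm until IkB kinase marks the IkB for degradation. In the canonical arm RELA and the NFKB1 product p50 enter the nucleus within minutes of a cytokine signal, while in the noncanonical arm the kinase NIK drives processing of the NFKB2 precursor to p52, which pairs with RELB. Many target genes encode the brakes of the pathway, among them NFKBIA and TNFAIP3, so their transcripts are widely read as signs of its activity. MDA-MB-231 cells are known for high basal NF-kB activity.

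The total count was 20144628 to 23782071 per library, and the TMM factors that scale library sizes were 0.877 to 0.899 for Baituling, 1.02 to 1.05 for Kushen and 1.08 to 1.10 for CKI. Levels are given as CPM, counts scaled to a common library size. All 7 markers of the line (VIM, CD44, AXL, CAV1, MSN, KRT18 and EGFR) had at least 3122 counts in every library. Their summed level was 2934 to 3021 CPM under CKI, 3784 to 3796 under Kushen and 6377 to 6456 under Baituling. VIM spanned the widest range of the 7, with means of 351, 584 and 2070 CPM in that order. EGFR alone was lowest under Baituling (mean 247 CPM, against 427 under CKI and 424 under Kushen). ESR1 and PGR, which such cells lack, had at most 3 and 4 counts, while EPCAM, a further gene of that list, had 162 to 280. Of 6 markers of other cell types, 4 stayed under 20 counts in every library (PTPRC, CD3E, LYZ and CDH5), and the fibroblast genes COL1A1 (285 to 963 counts) and PDGFRB (92 to 317) did not. The 6 markers of other cell types summed to 20.7 to 24.2 CPM under Baituling, 29.3 to 33.0 under Kushen and 45.5 to 49.98 under CKI. COL1A1 (means of 16.3, 22.7 and 35.6 CPM in that order) and PDGFRB (5.53, 7.86 and 12.2) made up most of the sum. The part of these marker differences in the results below was not tested. In bulk RNA, fewer cells expressing a gene and less of its RNA per cell cannot be told apart.

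Promoter sequences show which members carry the DNA element that NF-kB dimers bind. RefSeq (GRCh38.p14) listed 13 promoters for 8 of the members, each reaching from 250 bases before to 50 after a transcript start. RELB and NFKBIE had no entry. The kB decamer consensus, searched on both strands, was present in 8 of the 13 promoters and 6 of the 8 genes, and in 11.3% of all 35116 promoters. It occurred more than once in 4 of the 13 and in 2.04% of all. The members were chosen by name as NF-kB genes, so a larger share among them is not an independent result. TATAAA was found in 2 of the 13 promoters and in 11.53% of all, and the AP-1 heptamer TGANTCA in 0 of the 13 and in 7.71% of all. Since the decamer is close to a palindrome, matches of both strands can fall on the same or neighbouring bases, and no match overlapped TATAAA. The 250 bases before the start are printed for the members whose levels differed most between injections and for NFKBIA, with kB decamers in capitals: the first of 2 NFKB1 promoters (chr4:102501109-102501358, plus strand), NFKBIA (chr14:35404750-35404999, minus strand), the first of the NFKBIZ promoters (chr3:101827740-101827989, plus strand), TNFAIP3 (chr6:137867009-137867258, plus strand), BIRC3 (chr11:102317234-102317483, plus strand) and TNFAIP2 (chr14:103123211-103123460, plus strand).
NFKB1: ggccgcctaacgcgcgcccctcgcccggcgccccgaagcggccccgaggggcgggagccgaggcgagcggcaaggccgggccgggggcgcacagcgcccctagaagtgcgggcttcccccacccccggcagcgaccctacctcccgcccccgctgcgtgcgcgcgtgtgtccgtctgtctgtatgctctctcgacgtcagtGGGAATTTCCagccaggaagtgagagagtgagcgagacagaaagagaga
NFKBIA: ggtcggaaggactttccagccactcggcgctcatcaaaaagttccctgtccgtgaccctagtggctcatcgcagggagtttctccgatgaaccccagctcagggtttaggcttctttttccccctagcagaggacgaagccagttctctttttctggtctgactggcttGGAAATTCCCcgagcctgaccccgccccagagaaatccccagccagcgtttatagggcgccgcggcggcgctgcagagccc
NFKBIZ: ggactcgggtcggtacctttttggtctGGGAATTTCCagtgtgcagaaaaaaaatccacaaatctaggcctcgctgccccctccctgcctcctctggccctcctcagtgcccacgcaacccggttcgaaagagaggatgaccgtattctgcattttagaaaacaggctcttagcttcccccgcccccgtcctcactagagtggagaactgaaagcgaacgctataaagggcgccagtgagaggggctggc
TNFAIP3: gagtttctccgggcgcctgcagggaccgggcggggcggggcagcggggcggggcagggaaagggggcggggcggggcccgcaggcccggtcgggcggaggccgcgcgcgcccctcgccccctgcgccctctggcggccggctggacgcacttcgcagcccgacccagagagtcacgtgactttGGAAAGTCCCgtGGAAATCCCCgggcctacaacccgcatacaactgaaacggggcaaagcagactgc
BIRC3: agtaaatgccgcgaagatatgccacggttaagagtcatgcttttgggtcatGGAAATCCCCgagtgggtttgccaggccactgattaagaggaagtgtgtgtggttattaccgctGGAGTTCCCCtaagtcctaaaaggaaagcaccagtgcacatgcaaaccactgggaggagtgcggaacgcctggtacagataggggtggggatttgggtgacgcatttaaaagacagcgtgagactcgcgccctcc
TNFAIP2: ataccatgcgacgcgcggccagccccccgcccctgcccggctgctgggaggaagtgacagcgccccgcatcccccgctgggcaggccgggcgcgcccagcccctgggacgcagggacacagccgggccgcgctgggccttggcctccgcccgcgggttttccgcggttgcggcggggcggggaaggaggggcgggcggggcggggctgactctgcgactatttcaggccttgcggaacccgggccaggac
Counted from the transcript start, the decamer began at -49 in the printed NFKB1 promoter, while the other NFKB1 promoter had none. It began at -81 in NFKBIA and at -223 in the printed NFKBIZ promoter. TNFAIP3 held a pair at -67 and -55, and BIRC3 a pair at -199 and -135. TNFAIP2 had none in this window, nor did the listed promoters of RELA. TATAAA began at -33 in NFKBIA, read from the opposite strand, and at -29 in NFKBIZ. A match describes letters in a window and does not show binding.

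Kushen gave the lowest mean level of 9 of the 10 members, TNFAIP2 being the exception. The highest level was found under CKI for NFKB2, RELA, RELB, NFKBIE and BIRC3, and under Baituling for NFKB1, NFKBIA, NFKBIZ, TNFAIP3 and TNFAIP2. In CKI against Kushen, 9 of the 10 members passed the adjusted p of 0.05, against 39.8% of all genes tested, with 8 higher and 1 lower in CKI (19.6% and 20.2% of all genes). None had a log2 fold change beyond 1 at that adjusted p, a threshold that 1.9% of all genes passed (1.7% higher and 0.197% lower in CKI). The count was also 0 at an unadjusted p under 0.05 with that fold and 0 in DESeq2, but 1 (BIRC3) when library totals replaced the TMM scaling. In CKI against Baituling all 10 members passed the adjusted p (76.1% of all genes), 5 higher and 5 lower in CKI (39.1% and 37% of all genes). NFKBIZ and TNFAIP2 also passed the fold threshold, both lower in CKI, where 7.91% of all genes were called lower and 11.2% higher. In Kushen against Baituling all 10 passed it (71.6% of all genes) and all were lower in Kushen (36.1% of all genes, with 35.6% higher), 4 of them beyond the fold threshold, namely NFKB1, NFKBIZ, TNFAIP3 and TNFAIP2. Of all genes, 6.73% were called lower and 8.5% higher in Kushen. With library totals 6 passed the adjusted p and 2 the fold threshold, and NFKB2 and RELB lay at log2 differences of 0.012 and 0.045, on the other side of 0. The comparisons share libraries and are not independent of each other.

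**Figure D1:**
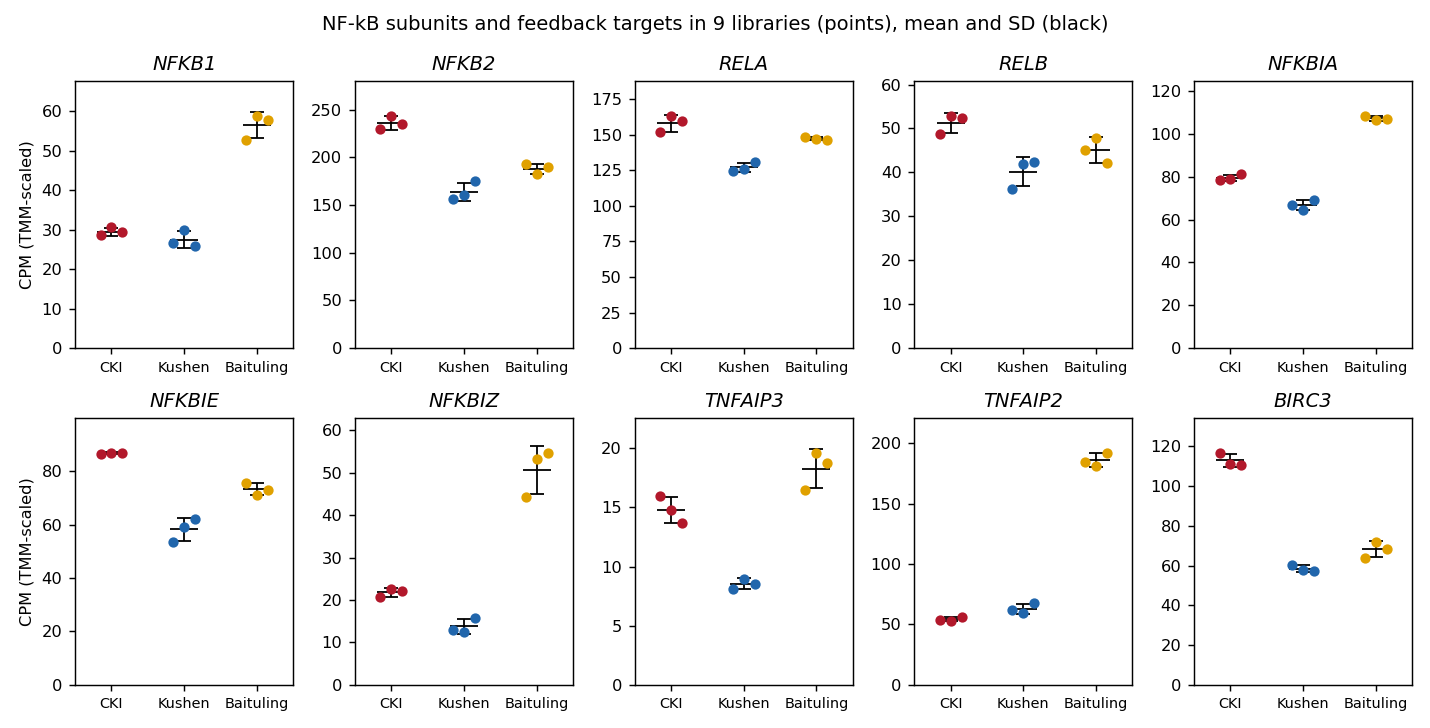
Level of each member in CPM (vertical axes, starting at 0) in the 3 CKI, 3 Kushen and 3 Baituling libraries; points are libraries, and black marks give the mean and SD. Kushen lies lowest in 9 of 10 panels, and TNFAIP2 stands at 181 to 192 CPM under Baituling against 52.8 to 67.6 under the other injections.

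CKI against Kushen gave the members a median log2 fold change of 0.44, beside 0.0079 over all genes tested. The same median was -0.10 for CKI against Baituling (all genes 0.034) and -0.51 for Kushen against Baituling (all genes 0.018). In absolute size the members' medians were 0.44, 0.38 and 0.51 in that order, and those of all genes 0.17, 0.46 and 0.41. The libraries of both groups did not overlap for 9 members in CKI against Kushen (49.5% of all genes), for 10 in CKI against Baituling (78.3%) and for 9 in Kushen against Baituling (73.1%).

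**Figure D2:**
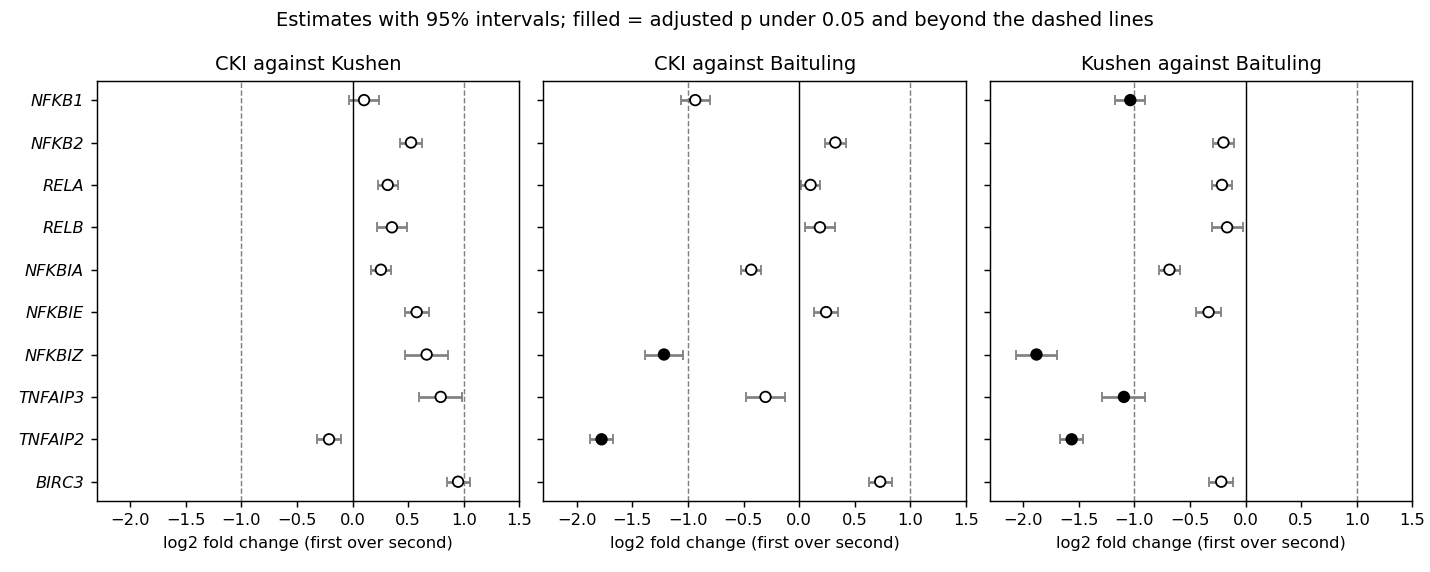
Log2 fold change of the 10 members in the 3 comparisons (horizontal axis, first group minus second), with the 95% confidence interval of the edgeR fit as bars and dashed lines at the fold threshold. BIRC3 lies highest in CKI against Kushen at 0.95, and NFKBIZ lowest in Kushen against Baituling at -1.88.

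Of the Rel subunits, NFKB1 alone was highest under Baituling. It encodes the p105 precursor of p50 and lies at chr4:103422487-103538459 of hg19, plus strand. Its level was 28.6, 30.6 and 29.3 CPM in the CKI libraries, 26.6, 29.9 and 25.9 in Kushen, and 52.7, 58.8 and 57.7 in Baituling. Every Baituling library lay above every other library, while CKI and Kushen overlapped. Baituling was 1.91-fold above CKI (log2 fold change -0.93 ± 0.06 SE for CKI against Baituling, adjusted p = 6.14e-11) and 2.05-fold above Kushen (-1.04 ± 0.06, adjusted p = 2.12e-11). CKI and Kushen differed by 0.10 ± 0.07 (95% interval -0.03 to 0.24, adjusted p = 0.225). The call of NFKB1 in Kushen against Baituling rests on a value near the fold threshold. Its log2 fold change was -0.83 with library totals, -0.97 with upper quartile scaling and -0.99 without Kushen replicate 3.

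NFKB2, at chr10:104153867-104162281 on the plus strand, encodes the p100 precursor of p52 and is itself a target of the pathway. Its libraries read 229, 243 and 235 CPM in CKI, 157, 161 and 175 in Kushen, and 192, 182 and 190 in Baituling. With TMM scaling the order was CKI, Baituling, Kushen with no overlap. Kushen against Baituling was -0.20 ± 0.05 (adjusted p = 0.000784), but 0.012 with library totals. CKI was 1.44-fold above Kushen (0.53 ± 0.05, adjusted p = 5.65e-08) and 1.25-fold above Baituling (0.33 ± 0.05, adjusted p = 2.83e-06).

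RELA, the main activating subunit of the canonical arm (chr11:65421070-65430561, minus strand), varied least among the members. It stood at 152, 163 and 159 CPM in CKI, 124, 126 and 131 in Kushen, and 149, 147 and 146 in Baituling. CKI was 1.24-fold above Kushen (0.32 ± 0.04, adjusted p = 9.4e-06). CKI exceeded Baituling by 0.10 ± 0.04 (adjusted p = 0.034), a difference that passed the threshold in 7 of 15 alternative analyses. RELB, the partner of p52 (chr19:45504719-45541450, plus strand), read 48.7, 52.9 and 52.3 CPM in CKI, 36.3, 41.8 and 42.4 in Kushen, and 45.2, 47.9 and 42.1 in Baituling. CKI libraries were the highest, and Kushen and Baituling overlapped. CKI was 1.28-fold above Kushen (0.35 ± 0.06, adjusted p = 0.000228). It exceeded Baituling by 0.19 ± 0.06 (adjusted p = 0.0135), which passed in 13 of 15 alternatives. Kushen lay below Baituling by a log2 difference of -0.17 ± 0.07 (adjusted p = 0.0307), which passed in 8 of 15 alternatives and was 0.045 with library totals.

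The IkB genes separated by injection in different orders. NFKBIA encodes IkB-alpha, the inhibitor resynthesised soon after NF-kB enters the nucleus (chr14:35870285-35873955, minus strand). Its levels were 78.5, 79.2 and 81.1 CPM in CKI, 66.7, 64.4 and 69.1 in Kushen, and 108, 106 and 107 in Baituling. The 3 groups did not overlap. Baituling was 1.61-fold above Kushen (-0.69 ± 0.04 for Kushen against Baituling, adjusted p = 4.44e-11) and 1.35-fold above CKI (-0.43 ± 0.04, adjusted p = 2.72e-08). The difference of CKI from Baituling ranged from -0.45 to -0.14 over 15 alternatives and passed the adjusted p in all 15. CKI was 1.19-fold above Kushen (0.25 ± 0.04, adjusted p = 0.000152).

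NFKBIE encodes IkB-epsilon, an inhibitor that acts later in the response (chr6:44225903-44233525, minus strand). It was 86.4, 86.9 and 86.9 CPM in CKI, 53.6, 59.0 and 62.2 in Kushen, and 75.6, 71.2 and 73.0 in Baituling. Unlike NFKBIA, it was highest under CKI, again with no overlap between groups. CKI was 1.49-fold above Kushen (0.58 ± 0.05, adjusted p = 7.99e-08) and 1.18-fold above Baituling (0.24 ± 0.05, adjusted p = 0.000311).

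NFKBIZ encodes IkB-zeta, a nuclear IkB that works as a coactivator of secondary response genes (chr3:101546835-101579866, plus strand). CKI libraries had 20.7, 22.7 and 22.1 CPM, Kushen libraries 13.0, 12.6 and 15.8, and Baituling libraries 44.2, 53.2 and 54.8. Baituling was 3.68-fold above Kushen (-1.88 ± 0.09 for Kushen against Baituling, adjusted p = 4.35e-13), a change that 3.75% of all genes exceeded in size. Baituling was 2.32-fold above CKI (-1.22 ± 0.08, adjusted p = 8.38e-11), and CKI 1.59-fold above Kushen (0.67 ± 0.09, adjusted p = 1.74e-05). With library totals the log2 difference of CKI from Baituling was -0.93, short of the fold threshold. Its exons share 194 bases with NXPE3 on the same strand.

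TNFAIP3 encodes A20, a ubiquitin-editing enzyme that shuts off signalling upstream of IkB kinase (chr6:138188351-138204451, plus strand). Its libraries read 15.9, 14.7 and 13.7 CPM in CKI, 8.09, 8.98 and 8.56 in Kushen, and 16.4, 19.6 and 18.8 in Baituling. CKI was 1.73-fold above Kushen (0.79 ± 0.09, adjusted p = 1.94e-06), and Baituling 2.14-fold above Kushen (-1.09 ± 0.09 for Kushen against Baituling, adjusted p = 2.48e-09). CKI lay below Baituling, at a log2 difference of -0.30 ± 0.09 (adjusted p = 0.00352), which was -0.015 with library totals. Kushen against Baituling was -0.88 with library totals. CKI and Baituling levels did not overlap, though the highest CKI library and the lowest Baituling library lay close together.

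TNFAIP2 encodes a protein named for its induction by TNF (chr14:103587813-103603776, plus strand). It broke the pattern of the other members, with 54.1, 52.8 and 56.1 CPM in CKI, 61.9, 59.4 and 67.6 in Kushen, and 185, 181 and 192 in Baituling. Baituling was 3.43-fold above CKI (-1.78 ± 0.05 for CKI against Baituling, adjusted p = 1.47e-16), which 5.88% of all genes exceeded in size, and 2.96-fold above Kushen (-1.56 ± 0.05, adjusted p = 1.34e-15). Both calls held in all 15 alternatives. It was also the only member lower in CKI than in Kushen (-0.21 ± 0.05, adjusted p = 0.00313). Of the promoters printed above, that of TNFAIP2 alone held no kB decamer. Among those not printed, the RELA promoters, the other NFKB1 promoter and an NFKB2 promoter held none either. A link between the decamer and these levels was not tested.

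BIRC3 encodes cIAP2, a ubiquitin ligase that binds TRAF2 and limits NIK (chr11:102188215-102210134, plus strand). It stood at 117, 111 and 111 CPM in CKI, 60.3, 57.7 and 57.4 in Kushen, and 64.0, 72.1 and 68.4 in Baituling. All CKI libraries lay above those of both single injections. CKI was 1.93-fold above Kushen (0.95 ± 0.05, adjusted p = 5.87e-11), which 2.49% of all genes exceeded in size, and 1.66-fold above Baituling (0.73 ± 0.05, adjusted p = 7.34e-11). Kushen lay below Baituling (-0.22 ± 0.05, adjusted p = 0.000837), a difference that shrank to -0.0075 with library totals. With those totals both CKI differences reached 1.02.

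Since the libraries were unstranded, reads could not be assigned by strand where genes overlap. Exons of RELA share 103 bases with RELA-DT, those of TNFAIP3 share 95 with WAKMAR2, those of TNFAIP2 share 24 and those of BIRC3 share 126 with an unnamed gene each, all on the opposite strand. The merged exons of these members span 5058 to 7484 bases.

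Ratios of counts within a library do not depend on how libraries are scaled. They are not scaled by gene length, so they compare injections and do not give the relative abundance of a pair. NFKB2 over NFKB1 was 7.99 ± 0.04 (SD, n = 3) in CKI, 5.997 ± 0.68 in Kushen and 3.34 ± 0.28 in Baituling, with no overlap between groups. RELB over RELA was 0.324 ± 0.004 under CKI, 0.316 ± 0.021 under Kushen and 0.306 ± 0.019 under Baituling, and its groups overlapped in every comparison (two-sided exact permutation p = 0.9, 0.3 and 0.6). NFKBIA over RELA was 0.503 ± 0.017 in CKI, 0.525 ± 0.013 in Kushen and 0.728 ± 0.003 in Baituling, so CKI and Kushen overlapped and Baituling stood apart. BIRC3 over RELA was 0.715 ± 0.048 in CKI against 0.460 ± 0.023 in Kushen and 0.463 ± 0.031 in Baituling, and the single injections overlapped (exact permutation p = 0.9). TNFAIP2 over RELA ran from 0.344 ± 0.018 in CKI through 0.495 ± 0.023 in Kushen to 1.26 ± 0.04 in Baituling. The groups did not overlap in 19 of 24 tests of 8 ratios. Ratios of all other genes to RELA did not overlap for 75.4% of genes in Kushen against Baituling, 66.9% in CKI against Kushen and 76.6% in CKI against Baituling. With 3 libraries against 3 the smallest exact p is 0.1, and after Benjamini-Hochberg adjustment over the 24 tests it was 0.126.

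**Figure D3:**
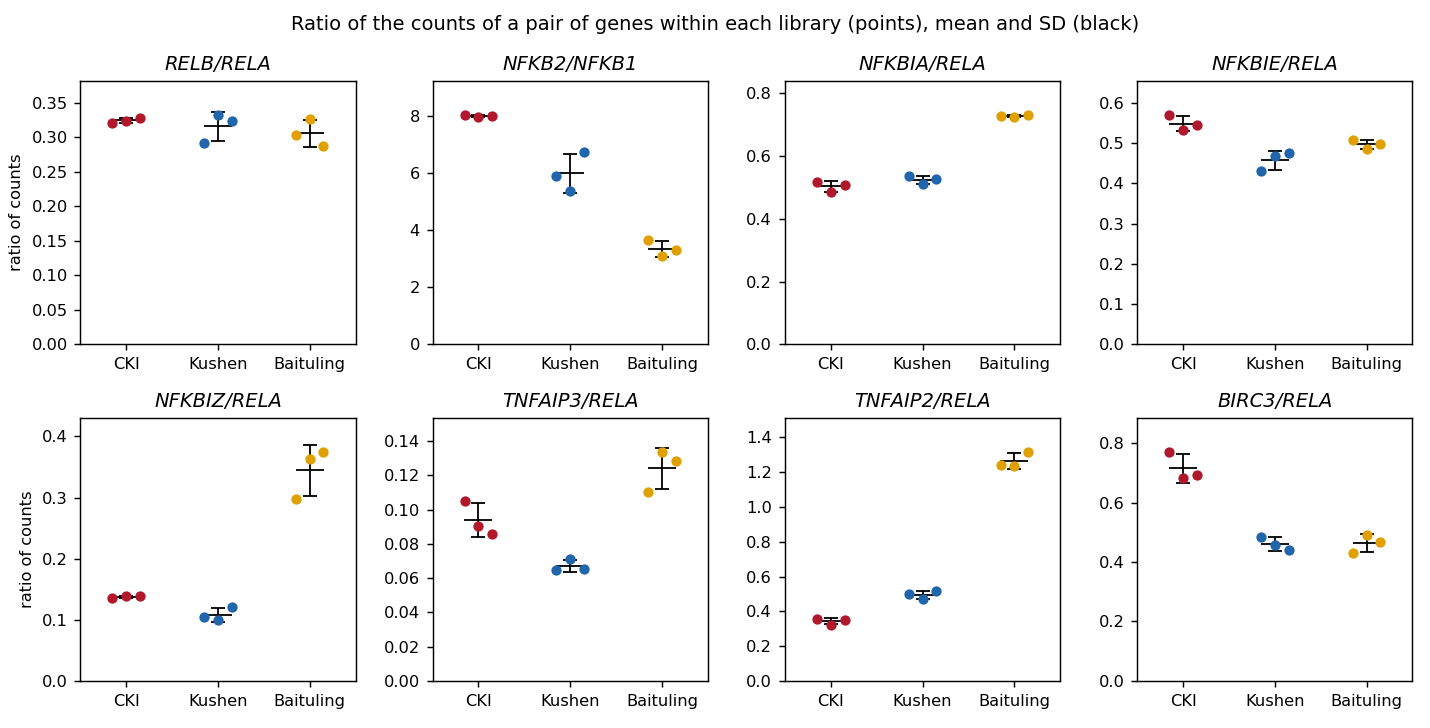
Ratio of the counts of a pair of members in each library (vertical axes, starting at 0), by injection, with mean and SD of 3 libraries in black. NFKB2/NFKB1 falls from about 7.99 in CKI to 3.34 in Baituling, while RELB/RELA overlaps among all groups.

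To rank the members within an injection, levels were taken per kilobase of exon. By merged exons NFKB2 was the most abundant member in CKI (42.2 ± 1.3 CPM per kb, SD, n = 3) and in Kushen (29.4 ± 1.7), and TNFAIP2 in Baituling (36.8 ± 1.1). TNFAIP2 ranked 7 of 10 in CKI, at 10.7 ± 0.3 CPM per kb. NFKB1 was lowest in CKI (1.88 ± 0.07) and TNFAIP3 in Kushen and Baituling (1.33 ± 0.07 and 2.84 ± 0.26). With the longest transcript as the length, NFKB2 ranked first and TNFAIP3 last under all 3 injections, so this order depends on the length chosen.

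**Figure D4:**
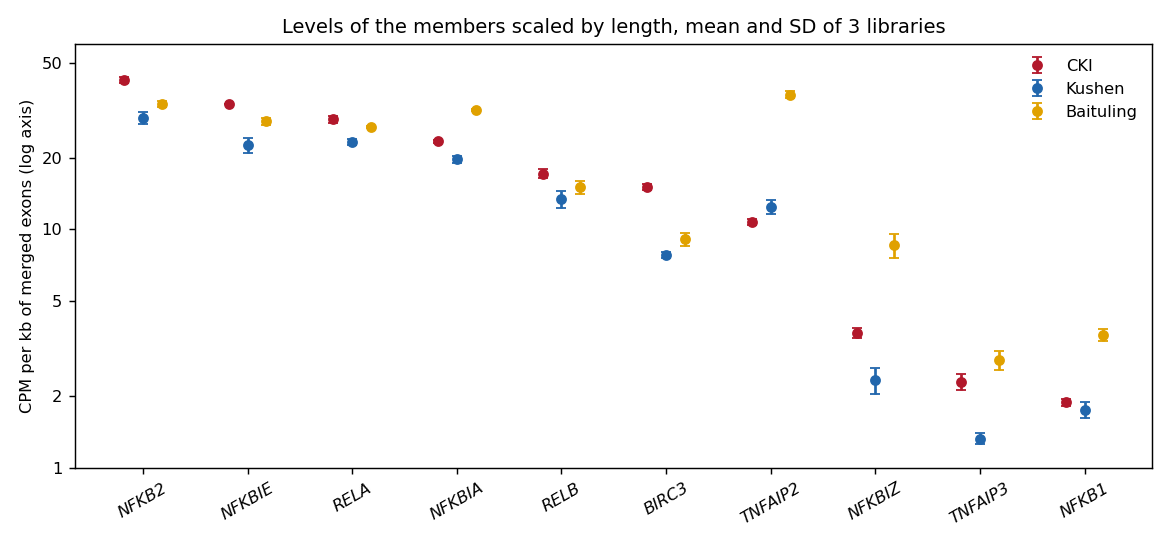
Level of each member per kilobase of merged exons (logarithmic vertical axis, CPM per kb), by injection, with mean and SD of 3 libraries. NFKB2 ranks first under CKI and Kushen and TNFAIP2 under Baituling at 36.8.

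Across the 9 libraries, members whose level was highest under the same injection had similar profiles, a split made after the levels were seen. Pearson's r of log2 CPM had a median of 0.91 over the 10 pairs among NFKB2, RELA, RELB, NFKBIE and BIRC3, and of 0.89 over the 10 pairs among the other 5. Between the sets it was 0.24 over 25 pairs, with a range of -0.40 to 0.77. These values describe 9 libraries in 3 groups and largely restate the group levels. Outside the members, the genes most like NFKBIA over the 9 libraries were SPRY2 (r = 0.997), TSC22D3 (0.996) and SAA1 (0.995), of 11955 genes compared. Those most like NFKB2 were JUNB (0.988), RCE1 (0.988) and SERTAD1 (0.984), and those most like BIRC3 were ELOA (0.993), NARF (0.992) and NBPF1 (0.986). SAA1 and NBPF1 have near-identical copies in the genome, and their counts are uncertain.

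The other proteins of the pathway were read from gene lists, described by counts without a test of the list. Higher and lower here count genes past the adjusted p, and the share of all genes tested stands beside each comparison. That share was 19.6% higher and 20.2% lower in CKI than in Kushen, 39.1% and 37% in CKI against Baituling, and 35.6% and 36.1% in Kushen against Baituling. Among 6 further subunits and IkB proteins, 3 were higher and 0 lower in CKI than in Kushen (median log2 fold change 0.32). Against Baituling, 1 was higher and 2 lower in CKI (0.023), and 0 were higher and 3 lower in Kushen (-0.31). With library totals the 3 splits became, in that order, 5 and 0, 4 and 2, and 2 and 3 (medians 0.40, 0.31 and -0.095). BCL3, a nuclear IkB that binds p50 and p52 dimers, averaged 33.9 CPM under Kushen, 38.05 under CKI and 68.7 under Baituling (-1.02 ± 0.07 for Kushen against Baituling, adjusted p = 6.51e-11), though it fell short of the fold threshold in several alternatives, down to -0.81. NFKBID, another nuclear IkB, differed by -1.43 ± 0.18 in the same comparison (adjusted p = 5.72e-07).

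The list of IKK and upstream kinases held 14 tested genes, among them the adaptor genes TAB1, TAB2 and TAB3. In CKI against Baituling 10 of the 14 were higher and 2 lower (39.1% and 37% of all genes). In Kushen against Baituling 9 were higher and 4 lower (35.6% and 36.1%), and in CKI against Kushen 6 were higher and 0 lower (19.6% and 20.2%). The median log2 fold changes were 0.34, 0.29 and 0.12 in that order. MAP3K14, which encodes NIK, averaged 50.9 CPM under CKI, 26.2 under Kushen and 22.5 under Baituling (1.17 ± 0.06 for CKI against Baituling, adjusted p = 6.51e-13). Its exons overlap MAP3K14-AS1 on the opposite strand. TAB3, an adaptor of the kinase TAK1, was 1.03 ± 0.05 higher in CKI than in Baituling (adjusted p = 1.25e-12), and 0.99 without CKI replicate 1.

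Of 13 TRAF, LUBAC and adaptor genes, 4 were higher and 1 lower in CKI than in Kushen (19.6% and 20.2% of all genes), and 3 were higher and 5 lower in CKI than in Baituling (39.1% and 37%), or 8 and 2 with library totals. In Kushen against Baituling 0 were higher and 8 lower (35.6% and 36.1%), a split that became 5 and 4 with library totals. The medians were 0.063, 0.012 and -0.20 in that order. TRAF1, a binding partner of TRAF2 and itself a target of NF-kB, averaged 31.2 CPM under CKI, 14.9 under Kushen and 22.3 under Baituling, the order of BIRC3. CKI exceeded Kushen by 1.07 ± 0.08 (adjusted p = 1.07e-08), and 0.99 without Kushen replicate 2.

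Among 26 tested textbook targets outside the members, 14 were higher and 5 lower in CKI than in Kushen, beside 19.6% and 20.2% of all genes (median log2 fold change 0.30). In CKI against Baituling 5 were higher and 19 lower, beside 39.1% and 37% (-0.56), and in Kushen against Baituling 0 were higher and 20 lower, beside 35.6% and 36.1% (-0.69). With library totals the CKI against Baituling split was 8 and 15 (median -0.27), and the Kushen against Baituling split 5 and 19. The growth factor gene CSF2 averaged 14.8 CPM under CKI, 3.48 under Kushen and 29.2 under Baituling (-3.07 ± 0.11 for Kushen against Baituling, adjusted p = 5.02e-15), an order like that of NFKBIZ. PTGS2, which encodes cyclooxygenase-2, averaged 9.20, 2.45 and 7.35 CPM and was 1.91 ± 0.13 higher in CKI than in Kushen (adjusted p = 2.86e-09). The adhesion gene VCAM1 had the order of TNFAIP2, with 4.53 CPM under CKI, 7.62 under Kushen and 64.2 under Baituling (-3.82 ± 0.08 for CKI against Baituling, adjusted p = 1.16e-18). IL1A, CXCL1 and CXCL2 were the other targets picked by size of change. IL1A was 1.93 ± 0.11 higher in CKI than in Kushen, and the chemokine genes CXCL1 and CXCL2 were -2.82 ± 0.11 and -2.34 ± 0.13 in CKI against Baituling.

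**Figure D5:**
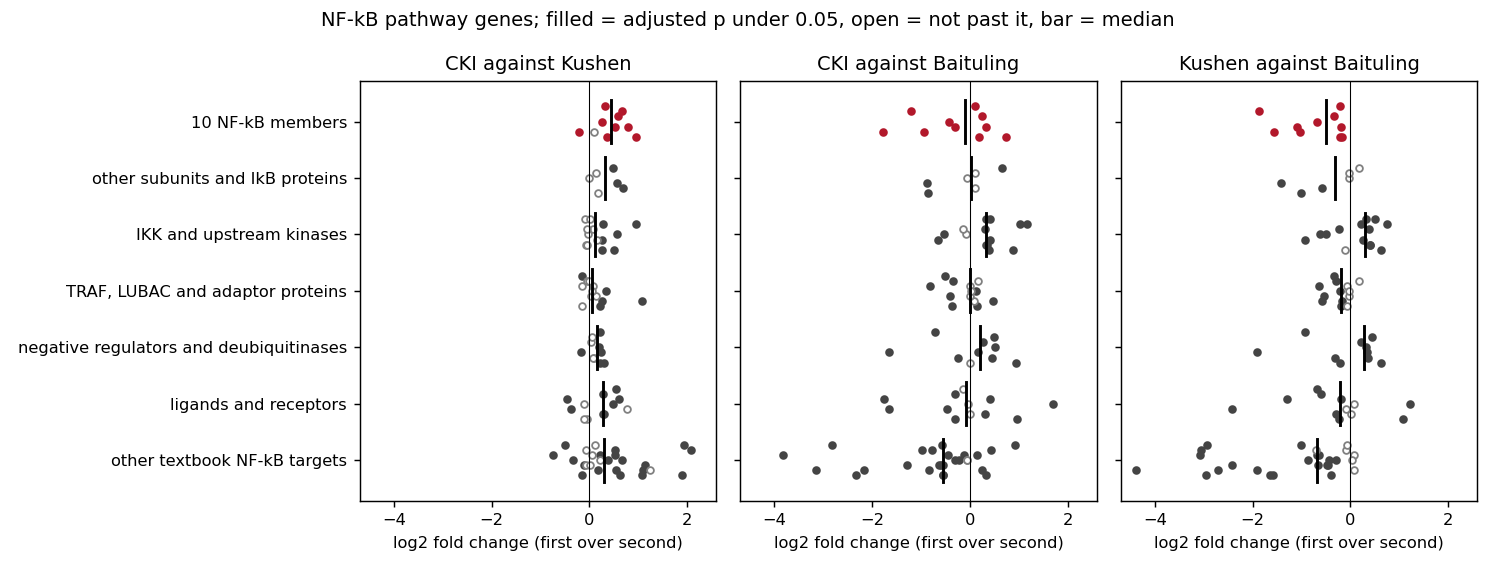
Log2 fold change of each tested gene of the members and of the 6 pathway lists in the 3 comparisons (horizontal axis, first group minus second), with the median of each list marked. The textbook targets lie mostly below 0 in Kushen against Baituling, with a median of -0.69.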

How the data were processed

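RNA from 9 libraries of MDA-MB-231 cells, 3 per injection, was sequenced unstranded in pairs. The authors trimmed reads with Trim Galore 0.3.7, aligned them to hg19 with STAR 2.5.3a and deposited raw counts per gene, and the counting program is not given in the sources used here. Columns were assigned to libraries by treatment initial and replicate number. Of 24566 rows, 222 repeated an Ensembl gene with identical counts, which left 24344 genes. Positions are from GENCODE on GRCh37, the assembly of hg19.

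The filterByExpr function of edgeR 4.0.16 (R 4.3.3; minimum count 10, minimum total 15) kept 14195 genes. Counts were scaled by TMM and fitted in a single quasi-likelihood model with group as the only term, with two-sided p-values adjusted by Benjamini-Hochberg over all genes tested. A gene was called at an adjusted p under 0.05 and an absolute log2 fold change above 1, as in the study. The common BCV, edgeR's coefficient of variation between replicates, was 4.53%. The fit was also run on simulated data, and the outcome is not reported here. Alternatives were other scalings, filters, DESeq2 1.42.0, a replicate block and leaving out each library.

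Members and lists were chosen with earlier results of these data known. All members were named. From each list, up to 3 called genes per comparison with the largest change and a mean log2 CPM of at least 1 were named, and for NFKBIA, NFKB2 and BIRC3 the 3 genes of highest correlation. The series describes biological replicates, but the labels do not say whether cultures were separate, so p-values measure the spread between these samples. Replicates differed beyond sampling noise (chi-square per gene 1.70 to 6.85). IKBKG, IKBKE, OTUD7B and PECAM1 were not analysed here. A further listed marker is not reported here.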

Additional observations from a re-analysis of the deposited data

How the results depend on the processing

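Scaling was the choice that mattered most. Library totals in place of TMM shifted the all-gene median by 0.21 (log2) in Kushen against Baituling, 0.29 in CKI against Baituling and 0.08 in CKI against Kushen. With them, 1 member was called in CKI against Kushen (BIRC3). In Kushen against Baituling 2 were called and 6 passed the adjusted p (not NFKB2, RELA, RELB and BIRC3). NFKB2 and RELB changed sign there, to 0.012 and 0.045. In CKI against Baituling NFKBIZ lay at -0.93, short of the fold threshold, while BIRC3 passed it at 1.02 and TNFAIP3 lay at -0.015. The other alternatives left the counts of members called or past the adjusted p within 1.5 times the values reported. Replicate numbers did not pair the libraries, since deviations of same-numbered libraries correlated at -0.07 to 0.12 and 0 of 9 libraries correlated best with its own number. With the replicate as a block, 0, 2 and 4 members were called and 9, 9 and 10 passed the adjusted p, the loss being RELA in CKI against Baituling at an adjusted p of 0.051. When a single library was left out, chosen after seeing the data, the log2 difference of RELB/RELA in CKI against Kushen ranged from -0.016 (without Kushen replicate 1) to 0.076, and that of BIRC3/RELA in Kushen against Baituling from -0.058 to 0.037, being above 0 without Kushen replicate 3, Baituling replicate 2 or Baituling replicate 3. These ratios overlapped between groups in any case. The causes were not tested. With 3 libraries a group and no untreated library, small differences such as that of RELA between CKI and Baituling depend on the setting.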

Other observations

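Of 12 tested receptors and ligands that feed the pathway, 6 were past the adjusted p and higher and 2 lower in CKI than in Kushen, beside 19.6% and 20.2% of all genes. In CKI against Baituling 4 were higher and 5 lower, near the shares of all genes (39.1% and 37%), and in Kushen against Baituling 2 were higher and 7 lower (35.6% and 36.1%). With library totals the last 2 splits became 6 and 3 and 5 and 4. The death ligand gene TNFSF10 averaged 65.2 CPM under CKI, 89.0 under Kushen and 219 under Baituling, and TNFRSF1B, which encodes TNF receptor 2, averaged 50.6, 36.4 and 15.7 CPM. The log2 fold changes in CKI against Baituling were -1.75 ± 0.05 for TNFSF10 (adjusted p = 1.12e-16) and 1.69 ± 0.07 for TNFRSF1B (adjusted p = 5.94e-14). TLR4, a receptor of bacterial lipopolysaccharide, was 1.07 ± 0.05 higher in Kushen than in Baituling (adjusted p = 8.09e-13).

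Of 10 tested negative regulators and deubiquitinases, 5 were higher and 1 lower in CKI than in Kushen (19.6% and 20.2% of all genes), 6 and 3 in CKI against Baituling (39.1% and 37%), and 6 and 4 in Kushen against Baituling (35.6% and 36.1%). ZC3H12A, an RNase that degrades inflammatory transcripts, averaged 16.8 CPM under Kushen, 19.97 under CKI and 63.2 under Baituling, with log2 fold changes of -1.91 ± 0.06 in Kushen against Baituling (adjusted p = 1.1e-15) and -1.66 ± 0.06 in CKI against Baituling (adjusted p = 3.25e-15). CYLD and TNIP1 were named after their values were seen. Both were higher in CKI than in Kushen, and they stood on opposite sides of Baituling. CYLD, a deubiquitinase, averaged 71.1, 57.5 and 37.1 CPM in CKI, Kushen and Baituling, and TNIP1, a partner of A20, averaged 291, 252 and 480 CPM.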
